A study of Mus musculus with 64 samples.

Results

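The comparison set 8 prefrontal cortex arrays of Tg2576 mice given PF-04447943 against 8 prefrontal cortex arrays of wild-type mice given vehicle, 16 of the 64 arrays of the series. The arrays were assigned by their titles, which give region, treatment and genotype, and not by a measured value. The choice of these groups was made with earlier results of these data known. The question was what differed from the normal, untreated state in the cortex of transgenic mice after treatment. Mice of both groups were 4 months old and of the B6SJLF1 background, an F1 cross of C57Bl/6 with SJL. The Tg2576 mice over-express a mutant human amyloid precursor protein, and the wild-type mice were littermates without the transgene. PF-04447943, which inhibits the phosphodiesterase PDE9A, was infused under the skin for 28 days from a minipump, and vehicle was delivered in the same manner. RNA of 8 mice per group was hybridised to an Affymetrix whole-genome mouse array. The remaining prefrontal groups, Tg2576 mice on vehicle and wild-type mice on PF-04447943, entered the fit as well. The groups compared differ in both genotype and treatment, so each difference is the sum of the transgene difference under vehicle and the drug difference within Tg2576 mice.

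PDE9A hydrolyses cyclic GMP, a second messenger made by guanylyl cyclases that respond to nitric oxide or to natriuretic peptides. Cyclic GMP acts through protein kinase G, and in neurons this kinase can lead to phosphorylation of the transcription factor CREB. Amyloid precursor protein is cut by beta- and gamma-secretase to amyloid-beta peptides, which accumulate as plaques in older Tg2576 mice. Neurons and glia make their own cholesterol by the mevalonate pathway, whose enzymes are switched on together by the transcription factor SREBP2, the product of Srebf2.

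The dissection was checked against cell type markers before any comparison. In vehicle wild-type mice the upper-layer cortical gene Cux2 had a mean log2 intensity of 9.85 in prefrontal cortex and 7.56 in hippocampus. The dentate granule cell genes Prox1 and Dsp lay at 5.41 and 4.60 in prefrontal cortex, against 7.72 and 9.35 in hippocampus. By these genes the arrays carried the markers of cortex and little of the dentate gyrus. Tbr1 (9.68 in prefrontal cortex, 8.05 in hippocampus) and the dentate gene C1ql2 (6.2 and 9.8) went the same way. Other members of both lists did not part the regions in this way. The layer genes Bcl11b and Fezf2 were at 10.14 and 8.91 in prefrontal cortex, against 11.39 and 9.30 in hippocampus. The dentate list genes Plk5 and Stxbp6 were at 7.80 and 10.66, against 8.08 and 10.80. Striatal neuron markers varied widely between arrays of both groups: their mean ran between 8.32 and 10.91 on the treated Tg2576 arrays and between 8.42 and 11.23 on the vehicle wild-type arrays. Vehicle wild-type replicate 5 stood apart from its group. It had the highest striatal mean, 11.23, and the lowest excitatory neuron mean, 10.02, where the other 15 arrays lay at or above 10.30. All 16 arrays had high Xist signals and low signals of Y-linked probe sets, with no overlap between them. In whole tissue, fewer cells of a type and less RNA per cell cannot be told apart.

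The signal range of an array, the interquartile range of its log2 values, averaged 3.67 ± 0.14 in treated Tg2576 and 3.59 ± 0.13 in vehicle wild-type mice (SD, n = 8 each, exact two-sided permutation p = 0.257, adjusted 0.345 over 3 array measures). The difference between 3 prime and 5 prime control probe sets, a sign of RNA quality, averaged 0.10 ± 0.06 in treated Tg2576 and 0.15 ± 0.07 in vehicle wild-type mice (SD, exact permutation p = 0.142, adjusted 0.345). Neither measure differed beyond the spread between arrays. The numbering of replicates went with signal range in both groups: numbers 1 to 4 had medians of 3.82 in treated Tg2576 and 3.72 in vehicle wild-type mice, and numbers 5 to 8 had medians of 3.59 in treated Tg2576 and 3.52 in vehicle wild-type mice.

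**Figure D1:**
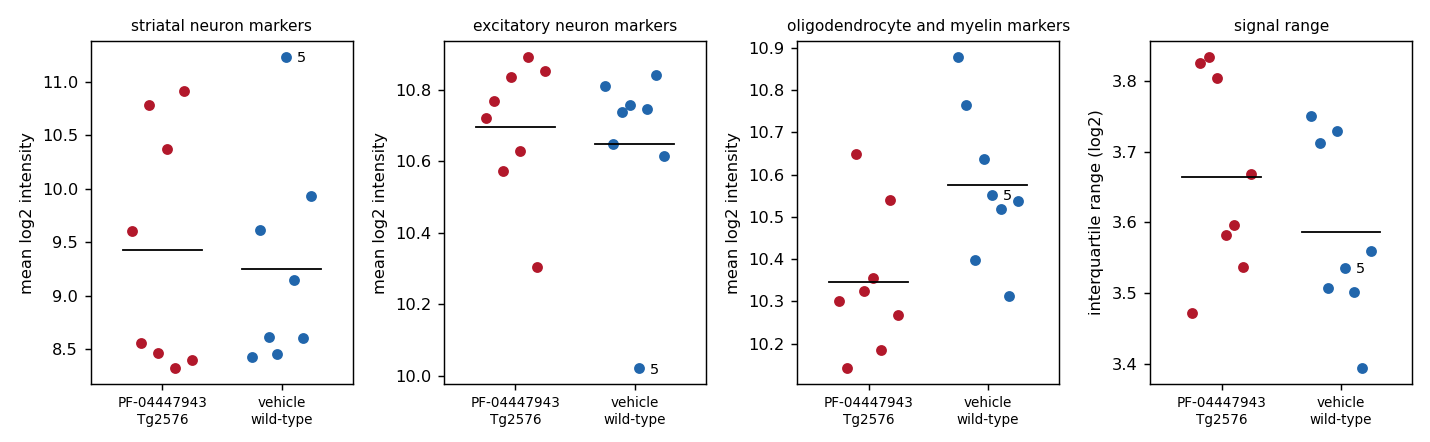
Mean log2 intensity of the striatal, excitatory neuron and oligodendrocyte markers and the signal range (interquartile range of log2 values) on each array of the compared groups. Each point is 1 array, horizontal lines are group means (n = 8), and 5 marks vehicle wild-type replicate 5, which is highest for striatal markers at 11.23 and lowest for excitatory neuron markers at 10.02.

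Of 12925 genes tested, 0 (0%) differed between treated Tg2576 and vehicle wild-type prefrontal cortex at an adjusted p under 0.05, in limma fitted on all 32 prefrontal arrays with Benjamini-Hochberg adjustment. The smallest adjusted p was 0.485. At an unadjusted p under 0.05 there were 767 genes (5.93%), where 646.25 would be expected by chance, and 563 of them (4.36%) were higher and 204 (1.58%) lower in treated Tg2576 mice. This split was 385 higher and 556 lower with signal range as a covariate, and 438 higher and 381 lower with quantile normalization. The differences were small, with 5th and 95th percentiles of -0.14 and 0.19 on the log2 scale, and 20 genes lay beyond 0.5 in either direction. The median SE of a difference was 0.081. More genes lay above 0 than below it, 8118 of 12925 (62.8%), and the median difference was 0.03, so a gene's difference is read against that median. The other 4807 genes lay below 0, and counts of list members below 0 are read beside that number. Without vehicle wild-type replicate 5 the count stayed at 0, with 781 genes at an unadjusted p under 0.05. The comparisons that share the vehicle wild-type arrays or the treated Tg2576 arrays had no gene past the threshold either. At an unadjusted p under 0.05 there were 1562 genes for Tg2576 against wild-type mice under vehicle, and 389 for PF-04447943 against vehicle within Tg2576 mice.

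**Figure D2:**
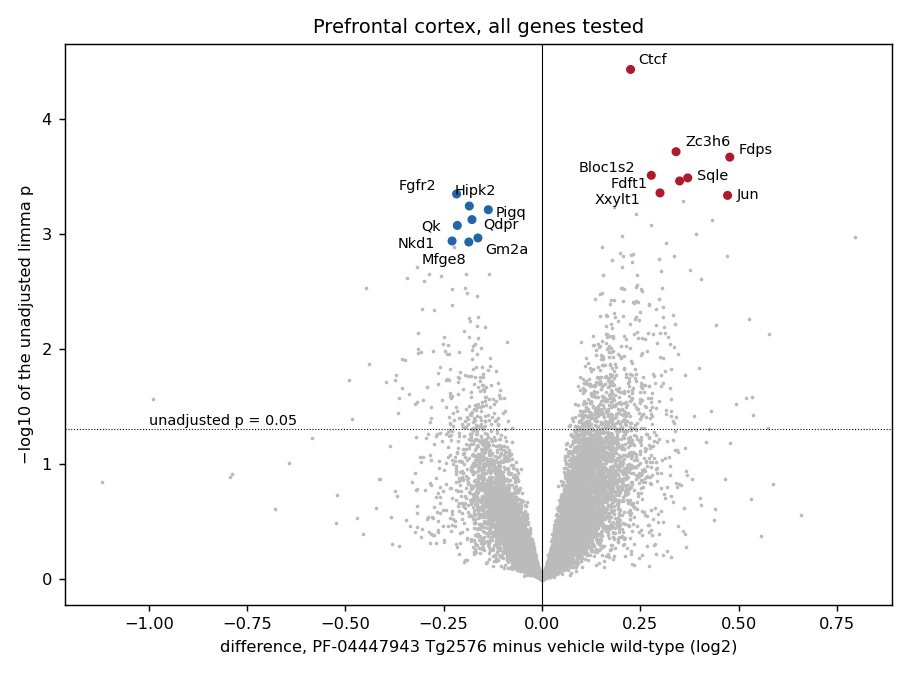
Difference of each of the 12925 genes (horizontal axis, PF-04447943 Tg2576 minus vehicle wild-type, log2) against the unadjusted limma p on a negative log10 axis, with the 8 higher (red) and 8 lower (blue) genes of smallest p named. No gene passed the adjusted threshold, and the dotted line marks an unadjusted p of 0.05.

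Genes of cholesterol synthesis and uptake were the group with the most members at a small p. Of 25 genes on this list, 20 were tested and the rest were not analysed here. None passed the adjusted threshold. All 20 lay above 0 in treated Tg2576 mice, where 62.8% of all genes did, and 9 had an unadjusted p under 0.05 in that direction, where 4.36% of all genes did. This list, like those below, was chosen with earlier results of these data known. Such counts of list members are therefore not independent support. Their median difference was 0.20, beside 0.03 for all genes, and the members ranged between 0.07 and 0.48. The mean level of the list lay between 9.36 and 9.87 (median 9.64) on the treated Tg2576 arrays and between 9.28 and 9.56 (median 9.38) on the vehicle wild-type arrays, so the groups overlapped.

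The promoters of 16 of the 20 tested genes were found in RefSeq (GRCm38.p6), as windows of 300 bases that hold 250 before and 50 after the gene start. The CCAAT box, CCAAT on either strand, is the site of the factor NF-Y, a partner of SREBP2 at sterol gene promoters. It was present in 16 of the 19 promoters of these 16 genes and in 37.4% of all 32851 promoters of the table. The sterol regulatory element TCACNCCAC, on either strand, was present in 1 of the 19 and in 1.24% of all promoters. Below are the windows of Hmgcs1 (chr13:119690101-119690400, plus strand), which holds both motifs, and of Msmo1 (chr8:64733529-64733828, minus strand), which holds the CCAAT box alone. They are shown because both genes have the smallest p of the list among those with a promoter entry. Fdps, Sqle, Fdft1 and Stard4, whose p was smaller, had no entry. The promoter of Hmgcs1 is the 1 of the 19 with the sterol regulatory element. Capitals mark the motifs, and CCAAT reads ATTGG where it lies on the other strand.
Hmgcs1: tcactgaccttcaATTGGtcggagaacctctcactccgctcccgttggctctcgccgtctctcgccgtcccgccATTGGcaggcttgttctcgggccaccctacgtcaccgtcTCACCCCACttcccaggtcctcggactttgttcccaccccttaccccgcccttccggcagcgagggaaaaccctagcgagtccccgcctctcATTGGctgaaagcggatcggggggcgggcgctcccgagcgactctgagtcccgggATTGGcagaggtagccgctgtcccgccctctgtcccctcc
Msmo1: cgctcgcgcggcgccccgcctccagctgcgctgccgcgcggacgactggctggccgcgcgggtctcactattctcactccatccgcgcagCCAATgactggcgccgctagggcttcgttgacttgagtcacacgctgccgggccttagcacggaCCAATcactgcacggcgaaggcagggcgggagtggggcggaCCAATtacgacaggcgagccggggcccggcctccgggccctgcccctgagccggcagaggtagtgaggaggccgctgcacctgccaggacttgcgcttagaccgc
Hmgcs1 held 4 CCAAT boxes and 1 sterol regulatory element, whose first base lies at -137 from the gene start, and Msmo1 held 3 CCAAT boxes. The motifs did not overlap one another. A match describes the sequence and not the binding of a factor.

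In the early, mevalonate part of the pathway, Hmgcs1 encodes the synthase that makes HMG-CoA. Its log2 intensity had a lowest, median and highest value of 12.41, 12.65 and 13.03 in treated Tg2576 mice, against 12.24, 12.39 and 12.54 in vehicle wild-type mice. The difference was 0.24 ± 0.08 (SE, n = 8 each, limma adjusted p = 0.698), and 5 treated Tg2576 arrays lay above every wild-type array. All 5 Hmgcs1 probe sets lay above 0, between 0.15 and 0.30.

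Fdps encodes farnesyl diphosphate synthase, at the branch between sterols and other isoprenoids. It had a lowest, median and highest value of 9.85, 10.44 and 10.67 in treated Tg2576 mice, against 9.59, 9.98 and 10.15 in vehicle wild-type mice. The difference was 0.48 ± 0.11 (SE, limma adjusted p = 0.608). A second Fdps probe set, below the intensity limit, gave -0.09, and with the mean of the probe sets Fdps was at 0.20. On 7 of 8 treated Tg2576 arrays Fdps was above the highest wild-type value, and replicate 6, at 9.85, was within the wild-type range. The other enzymes of this part had differences of 0.22 (Idi1), 0.20 (Mvd), 0.17 (Pmvk) and 0.12 (Mvk), each within 2 SE of 0.

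Fdft1 and Sqle take the first steps committed to sterols, squalene synthesis and squalene epoxidation, and Lss, at 0.12, then makes lanosterol. Fdft1 had a lowest, median and highest value of 10.45, 10.85 and 11.29 in treated Tg2576 mice, against 10.39, 10.49 and 10.75 in vehicle wild-type mice. The difference was 0.35 ± 0.09 (SE, limma adjusted p = 0.608), and a second well-expressed probe set of Fdft1 gave 0.45. For Sqle these values were 9.82, 10.40 and 10.58 in treated Tg2576 mice, against 9.81, 9.97 and 10.12 in vehicle wild-type mice, a difference of 0.37 ± 0.09 (SE, limma adjusted p = 0.608). As for Fdps, 7 of 8 treated Tg2576 arrays were above every wild-type array for Sqle, and replicate 6 was not.

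The later steps turn lanosterol into cholesterol. Msmo1, a sterol methyl oxidase, was at 10.53, 10.95 and 11.15 (lowest, median, highest) in treated Tg2576 mice, against 10.34, 10.59 and 10.83 in vehicle wild-type mice, a difference of 0.30 ± 0.09 (SE, limma adjusted p = 0.698). Nsdhl, which removes the carbon that Msmo1 oxidises, differed by 0.25 ± 0.08 and the sterol reductase Hsd17b7 by 0.28 ± 0.13. The rest of these enzymes had smaller differences: Sc5d 0.19, Tm7sf2 0.16, Ebp 0.13, Cyp51 0.10 and Dhcr7 0.07. The SE of Sc5d, 0.17, was the largest of the list, and its treated Tg2576 arrays spread between 9.13 and 10.35.

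Stard4, which carries cholesterol between membranes, was at 8.78, 9.19 and 9.66 (lowest, median, highest) in treated Tg2576 mice, against 8.52, 8.74 and 9.03 in vehicle wild-type mice. The difference was 0.39 ± 0.11 (SE, limma adjusted p = 0.617), and its other probe sets gave 0.48 and 0.44. Insig1, which holds the SREBP complex back in the endoplasmic reticulum and is itself a target of the pathway, differed by 0.19 ± 0.09. Srebf2 differed by 0.12 ± 0.07. For both, most treated Tg2576 arrays lay within the wild-type range.

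Most of the sterol difference was also present in Tg2576 mice on vehicle, which share the wild-type reference arrays. The median over the 20 genes was 0.25 for vehicle Tg2576 against vehicle wild-type, -0.03 for PF-04447943 against vehicle within Tg2576 mice, and 0.01 for PF-04447943 against vehicle within wild-type mice. For Fdps these differences were 0.46, 0.02 and 0.03, for Sqle 0.40, -0.03 and 0.02, and for Fdft1 0.40, -0.05 and 0.01, each with the SE given above. Treated Tg2576 mice were thus within 1 SE of vehicle Tg2576 mice for these 3 genes. The level of the list went with signal range inside each group: replicate 2 of the treated Tg2576 mice and replicate 1 of the vehicle wild-type mice, the arrays of next widest and of widest range in their groups, had the highest list mean there. With signal range as a covariate the list's median was 0.11, with 19 of 20 genes above 0, beside a median of -0.00068 for all genes, and Fdps was at 0.42. Without vehicle wild-type replicate 5 the median was 0.21.

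**Figure D3:**
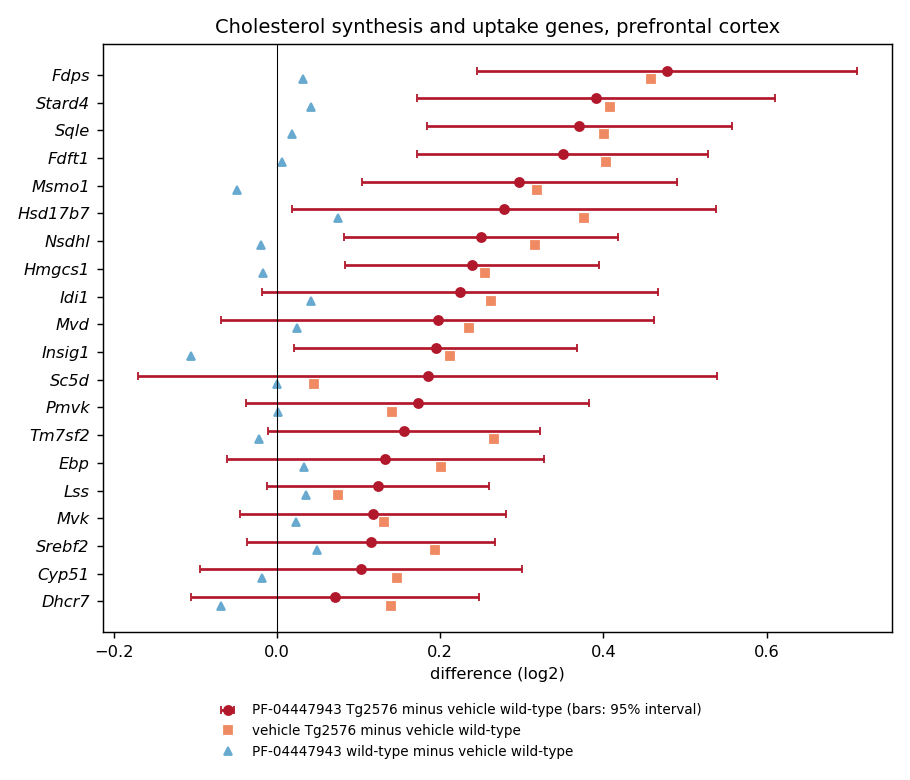
Difference in log2 intensity of the 20 cholesterol genes in prefrontal cortex. Red points are PF-04447943 Tg2576 minus vehicle wild-type with 95% intervals, between 0.07 and 0.48, and squares (vehicle Tg2576) lie near them while triangles (PF-04447943 wild-type) lie near 0, all against the same vehicle wild-type arrays.

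Among all genes, Ctcf had the smallest p. It encodes the zinc finger protein that anchors chromatin loops. Its lowest, median and highest values were 9.47, 9.66 and 9.72 in treated Tg2576 mice, against 9.17, 9.43 and 9.54 in vehicle wild-type mice, a difference of 0.23 ± 0.05 (SE, limma adjusted p = 0.485). Of the treated Tg2576 arrays, 7 were above every wild-type array. Unlike the sterol genes, the Ctcf difference was 0.03 for vehicle Tg2576 against vehicle wild-type, and 0.20 and 0.19 for PF-04447943 against vehicle in Tg2576 and in wild-type mice. A second Ctcf probe set of similar intensity gave 0.05 ± 0.06, so the probe sets disagreed.

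Jun, a subunit of the AP-1 transcription factor, was at 9.32, 9.68 and 10.15 (lowest, median, highest) in treated Tg2576 mice, against 8.76, 9.26 and 9.53 in vehicle wild-type mice. It differed by 0.47 ± 0.12 (SE, limma adjusted p = 0.608), and its second probe set gave 0.38. Its parts were 0.37 for the transgene under vehicle and 0.10 for the drug in Tg2576 mice. The others of the 8 higher genes were Zc3h6 at 0.34, Xxylt1, which adds xylose to the sugar chains of Notch, at 0.30, and Bloc1s2, a subunit of a complex for lysosome-related organelles, at 0.28. All 8 treated Tg2576 arrays were above the wild-type mean for each of these 4 genes.

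Nlgn1, a postsynaptic adhesion protein of excitatory synapses, was at 9.33, 9.41 and 9.51 (lowest, median, highest) in treated Tg2576 mice, against 9.03, 9.17 and 9.29 in vehicle wild-type mice, so the groups did not overlap. The difference was 0.24 ± 0.06 (SE, limma adjusted p = 0.608), of which 0.03 was the transgene under vehicle and 0.21 the drug in Tg2576 mice. A second Nlgn1 probe set, below the intensity limit, gave -0.08, and with the mean of the probe sets Nlgn1 was at 0.078. Among all genes tested the arrays of both groups were fully apart for 5 (0.0387%). Nlgn1 and Nkd1 are 2 of them, and the other 3, Htr3a, Nipsnap1 and Pls1, are named because of these values. The serotonin receptor channel gene Htr3a lay between 7.30 and 7.76 in treated Tg2576 mice, against 6.81 to 7.28 in vehicle wild-type mice, a difference of 0.36 ± 0.09 (SE, limma adjusted p = 0.608). Nipsnap1, a mitochondrial protein gene, differed by 0.18 ± 0.05, and Pls1, an actin-bundling plastin gene, by -0.23 ± 0.07.

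**Figure D4:**
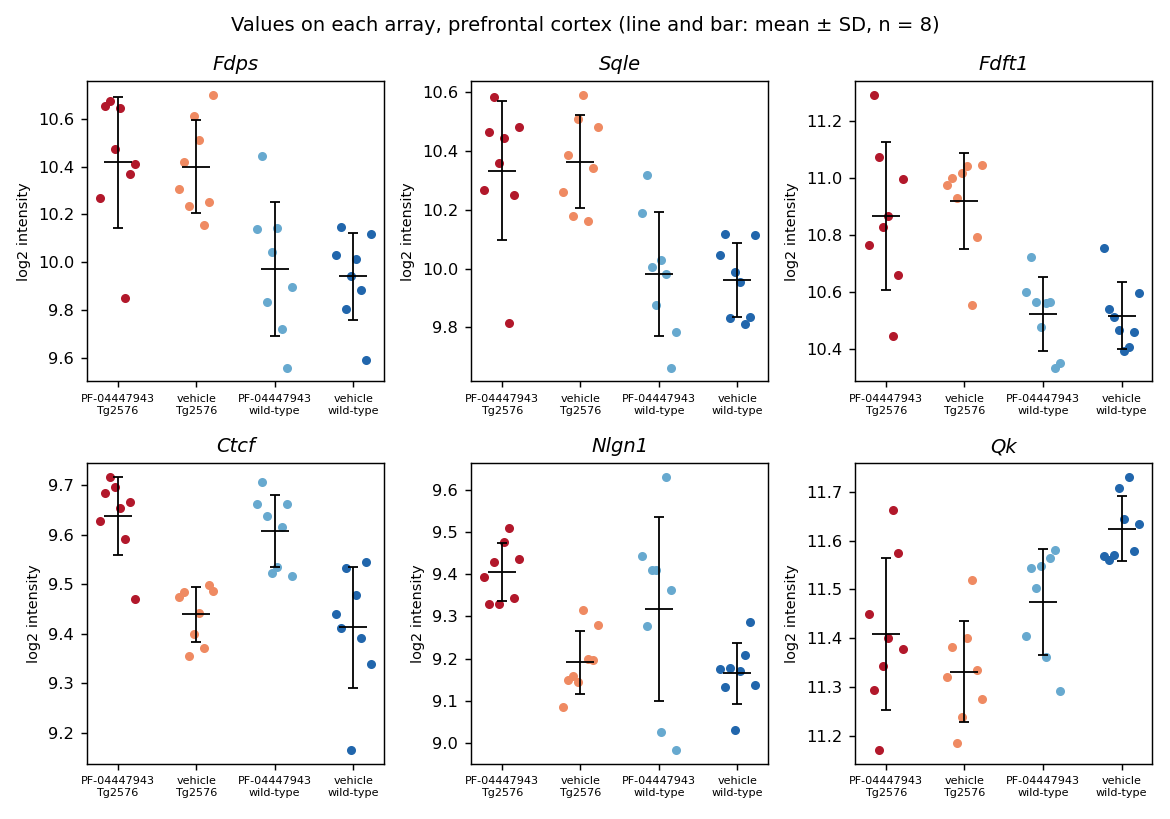
Log2 intensity of 6 genes on every prefrontal array, by group, with the mean and SD (n = 8 each). Fdps, Sqle and Fdft1 were high in both Tg2576 groups, Ctcf in both PF-04447943 groups, Nlgn1 in treated Tg2576 mice was above all vehicle wild-type arrays, and Qk was lower in treated Tg2576 than in vehicle wild-type mice on most arrays.

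The 8 lower genes of smallest p had differences between -0.14 and -0.23. Fgfr2, a fibroblast growth factor receptor, was at 9.09, 9.21 and 9.55 (lowest, median, highest) in treated Tg2576 mice, against 9.33, 9.47 and 9.53 in vehicle wild-type mice, a difference of -0.22 ± 0.06 (SE, limma adjusted p = 0.608). On 7 of 8 treated Tg2576 arrays it was below every wild-type array, and its second probe set gave -0.09. Hipk2, a nuclear kinase, was at -0.18 with the same count of arrays, and 7 of its 8 probe sets lay below 0.

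Nkd1, an inhibitor of Wnt signalling, was at 7.08, 7.18 and 7.28 in treated Tg2576 mice, against 7.30, 7.40 and 7.55 in vehicle wild-type mice, fully apart, a difference of -0.23 ± 0.06 (SE, limma adjusted p = 0.617). Qdpr, which recycles tetrahydrobiopterin, lay at -0.18, Mfge8, a bridging protein for phagocytosis, at -0.19 and Gm2a, a lysosomal ganglioside activator, at -0.16. Pigq, of the glycosylphosphatidylinositol anchor pathway, lay at -0.14, while its next 2 probe sets gave -0.01 and 0.00065. For Mfge8, Gm2a, Nkd1 and Pigq no treated Tg2576 array was above the wild-type mean.

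Oligodendrocyte markers and most astrocyte markers lay lower in treated Tg2576 mice. None passed the adjusted threshold. All 14 tested oligodendrocyte and myelin genes lay below 0, where 4807 of all 12925 genes did, with a median of -0.24. Of them, 4 had an unadjusted p under 0.05 (1.58% of all genes did in that direction). Qk, which encodes an RNA-binding protein needed for myelination, was at 11.17, 11.39 and 11.66 (lowest, median, highest) in treated Tg2576 mice, against 11.56, 11.61 and 11.73 in vehicle wild-type mice, a difference of -0.22 ± 0.06 (SE, limma adjusted p = 0.608). Its other probe sets ranged between -0.21 and 0.03. Olig1, a transcription factor of the lineage, was at 10.99, 11.11 and 11.39, against 11.20, 11.43 and 11.58 in vehicle wild-type mice, a difference of -0.26 ± 0.08 (SE, limma adjusted p = 0.649). The other 2 genes, named after their values were seen, were the myelin enzyme gene Cnp at -0.31 and the myelin basic protein gene Mbp at -0.16.

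The mean of the oligodendrocyte markers lay between 10.14 and 10.65 (median 10.31) in treated Tg2576 mice, against 10.31 to 10.88 (median 10.54) in vehicle wild-type mice, and the groups overlapped. Their median was -0.16 for vehicle Tg2576 against vehicle wild-type and -0.15 for PF-04447943 against vehicle within wild-type mice. The list's median was thus below 0 in each of the other 3 groups when set against the same vehicle wild-type arrays. The 6 tested markers of oligodendrocyte precursors also lay below 0, with a median of -0.14, or 5 of 6 with each array centred on its median. Pdgfra, their growth factor receptor, differed by -0.22 ± 0.10 (SE, limma adjusted p = 0.791), and Sox10 by -0.19. Sox10 and Olig2 are also on the oligodendrocyte list, so the lists are not independent.

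Of 13 astrocyte markers, 11 lay below 0, where 4807 of all 12925 genes did, with a median of -0.13. At an unadjusted p under 0.05 there were 5, all lower, beside 1.58% of all genes. Glul, the glutamine synthetase gene, was at 12.74, 13.14 and 13.27 (lowest, median, highest) in treated Tg2576 mice, against 13.05, 13.38 and 13.64 in vehicle wild-type mice, a difference of -0.30 ± 0.09 (SE, limma adjusted p = 0.666). Slc1a3, a glutamate transporter, was at -0.19 ± 0.06 (SE, limma adjusted p = 0.687). For both no treated Tg2576 array was above the wild-type mean. The others, named after their values were seen, were Fgfr3 at -0.17, S100b at -0.16 and the gap junction gene Gja1 at -0.16, whereas Gfap, which rises in reactive astrocytes, was at 0.18 ± 0.26.

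Of 13 microglial markers, 5 lay above 0 and 8 below it, with a median of -0.04 and no member at an unadjusted p under 0.05. The parts of this median had opposite signs. The list's median was 0.17 for vehicle Tg2576 against vehicle wild-type mice, and -0.14 for PF-04447943 against vehicle within Tg2576 mice. Aif1 was at 0.10 ± 0.11 and Trem2, a receptor for lipids, at -0.08 ± 0.09. Of 10 genes that microglia raise around amyloid, 9 lay below 0, where 4807 of all 12925 genes did, with a median of -0.08. Gpnmb was at -0.20 ± 0.11 and Csf1 at -0.12 ± 0.07. No gene of this set had an unadjusted p under 0.05.

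Activity-regulated genes are induced in neurons by calcium and cyclic nucleotide signals, in part through CREB. Of 20 such genes, 12 lay below 0, where 4807 of all 12925 genes did, and the median was -0.12. At an unadjusted p under 0.05 there were 3, all lower (1.58% of all genes were). Egr1 was at 11.76, 12.40 and 13.06 (lowest, median, highest) in treated Tg2576 mice, against 12.47, 12.92 and 13.37 in vehicle wild-type mice, a difference of -0.49 ± 0.20 (SE, limma adjusted p = 0.791). Egr4 differed by -0.31 ± 0.12 and Egr2, named after its values were seen, by -0.99 ± 0.43. These are zinc finger transcription factors of 1 family, whose remaining member Egr3 was at 0.04 ± 0.19. The arrays of both groups overlapped for Egr1, Egr4 and Egr2, and Egr2 ranged between 5.19 and 8.39 in treated Tg2576 mice, against 7.08 to 8.51 in vehicle wild-type mice. The parts were -0.24 and -0.25 for Egr1 and -0.28 and -0.04 for Egr4, the transgene under vehicle before the drug in Tg2576 mice. Wild-type mice on PF-04447943 were also lower against the same vehicle wild-type arrays, by -0.29 for Egr1, -0.33 for Egr4 and -0.79 for Egr2. Treated Tg2576 against treated wild-type mice gave -0.21, 0.02 and -0.20 in this order. Not all such genes lay lower, as Bdnf was at 0.30 ± 0.26 and Jun, on no list, at 0.47.

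For the drug target Pde9a the lowest, median and highest values were 7.44, 7.62 and 7.72 in treated Tg2576 mice, against 7.46, 7.60 and 8.11 in vehicle wild-type mice. The difference was -0.05 ± 0.07 (SE, limma adjusted p = 0.869), and the groups overlapped. The wild-type value of 8.11 belonged to replicate 5, and without that array the difference was 0.02. Of 18 genes of cyclic GMP synthesis, kinases and phosphodiesterases, 12 lay above 0, with a median of 0.07, where 62.8% of all genes lay above 0. At an unadjusted p under 0.05, 3 were higher and 1 lower, beside 4.36% and 1.58% of all genes. Gucy1b1, a subunit of the nitric oxide receptor cyclase, was at 12.02, 12.10 and 12.21 in treated Tg2576 mice, against 11.90, 11.96 and 12.16 in vehicle wild-type mice, a difference of 0.11 ± 0.04 (SE, limma adjusted p = 0.791). Pde1a, a calcium-dependent phosphodiesterase of both cyclic nucleotides, differed by 0.26 ± 0.11. The other 2, named after their values were seen, were the natriuretic peptide receptors Npr3 at 0.49 ± 0.22 and Npr2 at -0.12 ± 0.06.

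App lay close to its wild-type level. It had values of 13.78, 13.92 and 13.99 (lowest, median, highest) in treated Tg2576 mice, against 13.82, 13.95 and 14.00 in vehicle wild-type mice, a difference of -0.02 ± 0.04 (SE, limma adjusted p = 0.879). A second probe set gave 0.07, and the 2 others, at -0.07 and -0.01, were below the intensity limit. These probe sets were designed on mouse sequence, and how far they read the human transgene was not tested. Prnp, the prion protein gene whose sequences drive the transgene of this line, was at 0.01 and 0.10 by its 2 probe sets. Of 23 genes of amyloid precursor processing and clearance, 8 lay above 0 and 15 below it, with a median of -0.04. Aph1a, a gamma-secretase subunit, was at -0.17 ± 0.08 and the amyloid-degrading protease gene Ide at -0.17 ± 0.09 (SE, limma adjusted p = 0.791 for both). Mme, which encodes the amyloid-degrading protease neprilysin, had the highest value of the list, 0.47 ± 0.30, and the beta-secretase gene Bace1 was at 0.12 ± 0.09. Both are named after their values were seen.

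**Figure D5:**
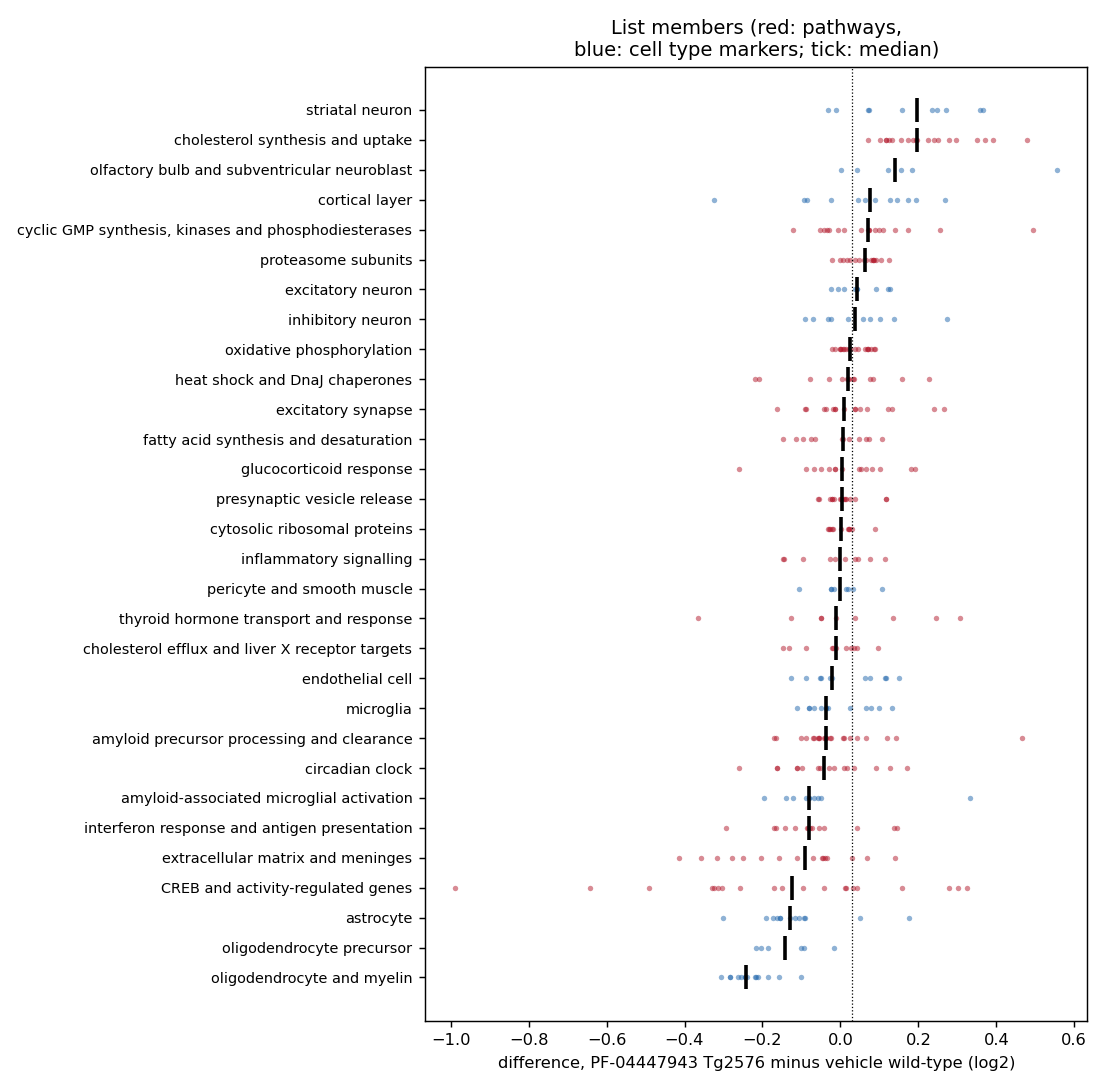
Log2 difference (PF-04447943 Tg2576 minus vehicle wild-type) of each tested member of the lists with at least 5 tested genes, 1 row per list. Black ticks are list medians and the dotted line is the median of all genes, 0.03. Cholesterol synthesis and striatal markers both lie at 0.20, and oligodendrocyte markers at -0.24. Neuroblast markers lie at 0.14, oligodendrocyte precursor markers at -0.14, astrocyte markers at -0.13 and activity-regulated genes at -0.12. Most other lists lie nearer to the dotted line.

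Synaptic lists centred near 0. Of 17 excitatory synapse genes 9 lay above 0, with a median of 0.01. Beside Nlgn1, the scaffold gene Dlg4, which encodes PSD-95, was at 10.33, 10.51 and 10.60 (lowest, median, highest) in treated Tg2576 mice, against 10.56, 10.65 and 10.83 in vehicle wild-type mice. Its difference was -0.16 ± 0.05 (SE, limma adjusted p = 0.748), with -0.01 for the transgene under vehicle and -0.16 for the drug in Tg2576 mice. Its other probe sets gave -0.11 and 0.17, so they disagreed, and their mean with the first was -0.036. The 16 presynaptic genes had a median of 0.0033, and Sv2b and Vamp2 were at 0.12 and -0.06. Excitatory, layer and inhibitory neuron markers had medians of 0.04, 0.08 and 0.04 and no member at an unadjusted p under 0.05. Striatal markers had a median of 0.20, which was 0.54 without vehicle wild-type replicate 5 and -0.05 without treated Tg2576 replicate 3, and the SE of Rgs9 was 0.57. In a fit with the striatal markers as a covariate, the sterol median was 0.21 and the oligodendrocyte median -0.26.

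The matrix and meninges list had 13 of 16 genes below 0, beside 4807 of all 12925 genes, and a median of -0.09. Igfbp2 was at 8.93, 9.10 and 9.69 (lowest, median, highest) in treated Tg2576 mice, against 9.25, 9.52 and 10.04 in vehicle wild-type mice, a difference of -0.36 ± 0.13 (SE, limma adjusted p = 0.791). Ptgds, the prostaglandin D synthase gene of meninges and oligodendrocytes, was at -0.41 ± 0.27. Dio2, which activates thyroid hormone in astrocytes, was at 8.74, 9.54 and 10.11, against 9.41, 9.71 and 10.25 in vehicle wild-type mice, a difference of -0.37 ± 0.17 (SE, limma adjusted p = 0.791). The other thyroid hormone genes were on both sides of 0, with a list median of -0.01.

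Of 14 interferon and antigen presentation genes, 11 lay below 0, where 4807 of all 12925 genes did, with a median of -0.08. Stat2, which carries the interferon signal to the nucleus, was at 0.15 ± 0.07 and Irf1 at -0.12 ± 0.05. Inflammatory signalling genes had a median of -0.0014, and Il1b, at -0.10 ± 0.08, was near the intensity limit. Cholesterol efflux and liver X receptor targets, which carry sterol out of cells, had 5 of 11 genes above 0 and a median of -0.01. Fatty acid synthesis and desaturation genes had a median of 0.0054, and the desaturase genes Scd2 and Scd1 were at -0.10 ± 0.04 and -0.15 ± 0.10. So the genes of sterol synthesis lay higher while those of efflux and of fatty acids centred near 0.

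Housekeeping lists centred near 0. Of 19 oxidative phosphorylation genes 15 lay above 0, where 62.8% of all genes did, with a median of 0.02. Of 16 proteasome genes 14 lay above 0, with a median of 0.06 and Psma1 at 0.12 ± 0.06. Cytosolic ribosomal proteins had a median of 0.0018 and chaperones 0.02. Clock genes had a median of -0.04, with Per1 at -0.26 ± 0.13 and Clock at 0.13 ± 0.06, and glucocorticoid response genes 0.0051, with Sgk1 at 0.19 ± 0.10. Endothelial and pericyte markers centred at -0.02 and -0.0018, and neuroblast markers at 0.14 with an SE of 0.69 for Cdhr1.

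The same comparison in hippocampus allowed a test of whether the prefrontal difference was particular to that region. Of 12950 genes, 0 (0%) had a difference that itself differed between the regions at an adjusted p under 0.05 in limma on all 64 arrays. At an unadjusted p under 0.05 there were 148 (1.14%), where 647.5 would be expected. So low a number means that these p values were not spread evenly, and the cause was not tested. A count of 0 thus does not show that the regions were alike. In this fit the comparison within hippocampus had 7 genes (0.0541%) past the adjusted threshold and 1155 (8.92%) at an unadjusted p under 0.05, and within prefrontal cortex 0 (0%) and 872 (6.73%). Counts within each region do not test the difference between them. The labels do not say whether arrays of both regions came from the same mouse, and they were fitted as independent. The genes of smallest p were Slc17a2, with 0.0036 in prefrontal cortex and -0.39 in hippocampus, Wdr89 with 0.28 and -0.02, Lmntd2 with 0.13 and -0.15, and Gzmm with 0.19 and -0.17 (limma adjusted p = 1.0 for each). Jun was at 0.47 in prefrontal cortex and 0.13 in hippocampus, and the 95% interval of the difference, 0.0094 to 0.68, is not adjusted for the number of genes.

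The 20 sterol genes had a median of 0.20 in prefrontal cortex and 0.28 in hippocampus, where 19 lay above 0. Over all genes the median difference in hippocampus was 0.02. The share of all genes above 0 was not counted in that region, so hippocampal counts of list members have no such share beside them. Fdps was at 0.48 in prefrontal cortex and 0.41 in hippocampus, Sqle at 0.37 and 0.52 and Fdft1 at 0.35 and 0.56 in this order of regions. The difference of Fdft1 between regions was -0.21, with a 95% interval of -0.46 to 0.04, and that of Insig1 was -0.24, with an interval of -0.49 to 0.01. Oligodendrocyte markers had medians of -0.24 in prefrontal cortex and -0.20 in hippocampus, and all 14 lay below 0 in both regions. All 13 microglial markers lay above 0 in hippocampus (median 0.08), and 5 did in prefrontal cortex (median -0.04). None of them had a regional difference at an unadjusted p under 0.05. Activity-regulated genes were at -0.12 in prefrontal cortex and 0.02 in hippocampus, and Egr1 was at -0.49 in prefrontal cortex and -0.0043 in hippocampus, with an interval of -1.20 to 0.22 for the difference.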

How the data were processed

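Arrays were hybridised once per sample. The authors' deposited intensity values came from RMA, per the submitters' processing notes, and its software and normalization batches are not stated there. They spanned 5.87 to 34088.93, a linear range, and log2 was taken. Of 45101 probe sets, 34945 had 1 symbol in the platform annotation, 932 several and 9160 none, with 64 controls. A gene (18193 in all) took the probe set with the highest mean on the 64 arrays, and genes under the 40th percentile of prefrontal probe sets (log2 5.91) were dropped.

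limma 3.58.1 (R 4.3.3, with version 1.17.8 of data.table) fitted 4 prefrontal groups together, or 8 groups to compare regions, with two-sided tests and a Benjamini-Hochberg threshold of 0.05. Array measures were tested by exact permutation (12870 regroupings). The fits were run on simulated data of independent genes, with known shifts larger than most differences found here. That run checks the fitting and does not bear on the count of 0 genes. No batch or pairing is named in the labels, and 8 mice per group limit the precision. RefSeq gave the promoters, and matplotlib 3.10.9 (Python 3.11.15) drew the figures.

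The groups and 34 gene lists (18 pathways, 16 sets of cell type markers) were chosen with earlier results of these data known. Named genes were the 8 higher and 8 lower genes with the smallest p, Pde9a, all probe sets of App and Prnp, all tested cholesterol genes, up to 2 genes with the smallest p from each other list, and 4 between regions. Alternatives were other filters, all or averaged probe sets, quantile normalization, median centring, a trended prior, array weights, covariates (RNA quality, signal range, striatal markers), other sets of groups, replicate blocks, a threshold of 0.1, and leaving out single arrays.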

Additional observations from a re-analysis of the deposited data

Results flagged for a closer look

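Each named gene and each of the 3 array measures was searched for a lowest or highest array far from the rest. The search was made in each of the compared groups (Dixon's rule, critical value 0.526 for 8 arrays). Chance flags about 1 in 20 groups, which is 9.8 of 196 searches, and 21 were found. All values are log2 intensities.

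Vehicle wild-type replicate 5 held 9 of them. It was high for the choroid plexus gene Clic6 (8.86), the striatal gene Rgs9 (11.6), the target Pde9a (8.11) and Scd2 (13.6). It was low for the cortical layer gene Fezf2 (7.71), the excitatory neuron gene Tbr1 (8.68), the interneuron peptides Npy (10.97) and Vip (9.63) and the vesicle gene Sv2b (11.96). The sources used here do not say how this sample was dissected.

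In treated Tg2576 mice, replicate 2 was high for Pde1a (11.2), Pmvk (9.84) and Sv2b (12.997) and low for Plk5 (6.39). Replicate 7 was high for Dlx1 (8.99), Hipk2 (10.7) and Qdpr (12.9), in which it was the array above the wild-type mean for the last 2. Replicate 6 was low for Sqle (9.82), and replicate 3 was high for Alas2 (8.18).

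In the other vehicle wild-type arrays, replicate 2 was high for Bloc1s2 (10.1), replicate 1 was high for Pmvk (9.28), and replicate 7 was low for Fgfr2 (9.33).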

How the results depend on the processing

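The count of 0 genes past the threshold stayed at 0 in every alternative run except quantile normalization and signal range as a covariate, which gave 1 gene each: Gm2a at -0.21 (limma adjusted p = 0.0465) and Tmem229a at -0.27 (limma adjusted p = 0.00698). Leaving out 1 array gave 0 genes throughout, with 479 to 1135 at an unadjusted p under 0.05; 479 was without vehicle wild-type replicate 7, 490 without treated Tg2576 replicate 3 and 1135 without vehicle wild-type replicate 2, against 767 with all arrays. This number was also above 1.5 times 767 with RNA quality as a covariate (1568), numbers 1 to 4 against 5 to 8 as a block (1427), the replicate block (1374) and all probe sets tested (1556 of 27022). The higher and lower genes among them were 438 and 381 with quantile normalization, 385 and 556 with signal range as a covariate and 594 and 298 with array weights, against 563 and 204. Same-numbered arrays of the compared groups did not deviate together (correlations -0.49 to 0.47, 1 of 8 treated Tg2576 arrays correlating best with its own number). Arrays of the same part of the numbering, 1 to 4 or 5 to 8, had a median correlation of 0.10, against -0.08 otherwise. The check covers these groups alone. It cannot show whether the numbers mark batches or, across regions, mice. The replicate block left 0 genes past the threshold and the sterol median at 0.20, and between regions it left 0 genes, with 175 at an unadjusted p under 0.05, and the genes of smallest p were then Wdr89, Mdm4, Bak1 and Cacna1b. The sterol median ranged between 0.11, with signal range as a covariate, and 0.25, with RNA quality as a covariate.

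Some named genes changed sign, and the cause was not tested. With the mean of a gene's probe sets, Scd2 was at 0.027, Vamp2 at 0.050, Psma1 at -0.022, Psmb1 at -0.029, Camk2a at -0.030 and Clic6 at 0.047. With array weights Clic6 was at 0.14. With RNA quality as a covariate Ppp1r1b was at -0.16, Rgs9 at -0.37, Cdhr1 at -0.19 and Ttr at -0.025. With signal range as a covariate Dhcr7 was at -0.0090, Aif1 at -0.0052 and Clic6 at 0.10. With 1 array left out, Plk5 ranged between -0.22 and 0.047 (without treated Tg2576 replicate 2), and Pde9a between -0.078 and 0.015, Tbr1 between 0.21 and -0.014 and Clic6 between -0.21 and 0.20 (the last value of each without vehicle wild-type replicate 5); Clic6 was also at 0.012 without treated Tg2576 replicate 2. In the other 2911 fits of named genes the sign and the side of the threshold were those of the result as given, apart from Gm2a above.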
